A study of Homo sapiens with 11 samples.

Results

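The genes of cholesterol and fatty acid synthesis were followed in RT4 cells, a human cell line from a bladder papilloma, grown on a cancer-remodeled extracellular matrix (crECM, Matrigel) or on plastic. The list named 34 genes by symbol. The array held 31 of them on 35 probes, of 14941 genes and 22464 probes in all, and HMGCS1, FDFT1 and ACACA were not analysed here. The 31 genes were 15 of the sterol branch, 7 of the fatty acid branch, 3 of precursor supply, 5 regulators and 1 sterol carrier.

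Growth on crECM after transfer from plastic was sampled on 9 arrays, 1 each at 12 h and on days 1, 2, 3, 4, 6, 7, 8 and 9, against 2 arrays of cells on plastic. All 11 arrays carried RNA of the same line, which derives from a single tumor, labeled with Cy3 and hybridized to spotted oligonucleotides. Cells on crECM were grown on top of a gel of mouse tumor matrix in medium with serum and were released with a matrix-dissolving solution, whereas the harvest from plastic is not given in the sources used here. The label of plastic replicate 2 adds the words "Matrigel next", which that of replicate 1 lacks, and their meaning was not stated. Nothing stated whether the plastic replicates were separate cultures, so p-values measured only the spread between these arrays. Time on crECM had no replicate of its own. In bulk RNA, fewer cells that express a gene and less of its RNA per cell cannot be told apart.

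Levels are given in standard deviations (SD) of the noise peak of the array, the scale the authors chose, and a probe above 3 SD is called above noise. Values below 3 SD were set to 3 before testing, so that the size of a change with an array at this floor depends on the floor. Changes are log2 differences of crECM minus plastic from limma, called at an adjusted p under 0.05 over 21480 probes. The arrays differed by substrate before any gene was compared: the median raw intensity was 224 to 481.5 on crECM, against 162 and 140 on plastic. The zero point was placed apart as well. Raw intensities from which deposited values left their lowest level were 28 to 62 on crECM, where the peak lay at 30.5 to 64, and 3.5 and 1.5 on plastic, where it lay at 28 and 29.5. Substrate and handling of the arrays cannot be told apart. Of 12 urothelial and epithelial markers tested, 11 were above 3 SD on at least 5 crECM arrays and 11 on both plastic arrays. Of all probes, 83.9% to 86.6% were above 3 SD on each array. In values rebuilt from the raw intensities, 76.5% to 85.4% of all probes were above 3 SD on each crECM array, and 53.2% and 44.5% on the plastic arrays. There, 10 of the 12 markers were above 3 SD on at least 5 crECM arrays and 7 on both plastic arrays. On the deposited scale, the summed level of the markers was 609 to 1269 SD on crECM and 717 to 771 SD on plastic. Of the 12, PSCA was called higher on crECM and CDH1 and KRT20 lower. PSCA was below 3 SD on both plastic arrays, so it was tested only through crECM and had to differ.

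Cholesterol and fatty acids are both built from cytosolic acetyl-CoA, which ACLY makes from citrate. The sterol branch passes through mevalonate, isoprenoids and squalene to lanosterol and on to cholesterol, and the fatty acid branch through malonyl-CoA to palmitate, which is then elongated and desaturated. The transcription factors SREBF2 and SREBF1 drive both branches when sterols are low. SCAP escorts them from the endoplasmic reticulum, and INSIG1 and INSIG2 hold SCAP back when sterols are ample.

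SREBP factors bind sterol regulatory elements near gene starts, so the upstream sequences that held such letters were drawn from the RefSeq promoter windows of GRCh38.p14. Windows run from 250 bases before to 50 after a start, and 28 of the 31 genes had one. The strict element TCACCCCAC was found on either strand in 1 member gene, SREBF2, and in 0.43% of all 35116 windows. A looser form, TCACNCNAC, which includes the strict one, was in 5 member genes, SREBF2, ACSS2, HSD17B7, FDPS and FADS2, and in 2.55% of all windows. The stretches shown are 250 bases for SREBF2 and 60 for the other genes, at chr22:41832855-41833104 for SREBF2, chr20:34876362-34876421 for ACSS2, chr1:162790579-162790638 for HSD17B7, chr1:155308701-155308760 for FDPS and chr11:61815958-61816017 for FADS2, all on the plus strand, with the match in capitals. They are shown because the 5 genes share these letters but not the direction of their change.
SREBF2: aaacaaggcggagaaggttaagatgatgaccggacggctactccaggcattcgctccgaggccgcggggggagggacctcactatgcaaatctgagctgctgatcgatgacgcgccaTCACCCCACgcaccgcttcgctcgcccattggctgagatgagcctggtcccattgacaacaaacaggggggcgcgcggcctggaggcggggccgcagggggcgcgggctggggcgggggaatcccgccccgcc
ACSS2: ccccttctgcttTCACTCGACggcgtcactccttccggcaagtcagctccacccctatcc
HSD17B7: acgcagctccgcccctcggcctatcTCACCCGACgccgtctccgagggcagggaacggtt
FDPS: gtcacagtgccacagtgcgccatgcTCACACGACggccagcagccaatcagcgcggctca
FADS2: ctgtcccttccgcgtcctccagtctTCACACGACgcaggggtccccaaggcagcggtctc

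In the same windows the CCAAT box was present in 20 of 28 member genes and in 34.6% of all windows, and the GC box GGGCGG in 27 of 28 and in 45.0%. The E-box CACGTG was present in SCAP, INSIG1, SC5D and LSS, and in 7.26% of all windows. Member genes could have several windows, so these shares are of genes beside shares of windows. A match is a run of letters and was not tested as a binding site. Of the 5 genes with the loose sterol element, ACSS2 and HSD17B7 were higher on crECM, SREBF2 was lower, and FDPS and FADS2 did not pass.

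Between substrates, 9 of the 31 genes were higher on crECM, 7 were lower and 15 did not pass. The shares of members, 29.0% higher and 22.6% lower, lay near those of all probes tested, of which 22.8% were higher and 22.4% lower. The genes called higher were ACLY and ACSS2 of precursor supply, MVD, IDI1, TM7SF2, HSD17B7 and SC5D of the sterol branch, and SCAP and INSIG1 of the regulators. Those called lower were AACS of precursor supply, MVK, CYP51A1, NSDHL and EBP of the sterol branch, SREBF2 of the regulators, and the carrier STARD4. AACS and NSDHL were above 3 SD on plastic only and TM7SF2 on crECM only, so that each entered the test through the group where it was high and had to differ. Without these 3, 8 genes were higher and 5 lower. All 9 crECM arrays lay above both plastic arrays for 9 genes and below both for 6, and the groups overlapped for 16. Over all probes tested, 20.8% had every crECM array above and 24.4% every crECM array below. The median change over the members was 0.11, beside 0.06 over all probes. These counts depended on the scaling, as did those of all probes. With values rebuilt from raw intensities without the regression step, 25 members were called higher and 0 lower, beside 15896 and 55 of 19533 probes. With those values centred on array medians 10 were higher and 12 lower, beside 4451 and 7941 of 19333 probes.

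**Figure D1:**
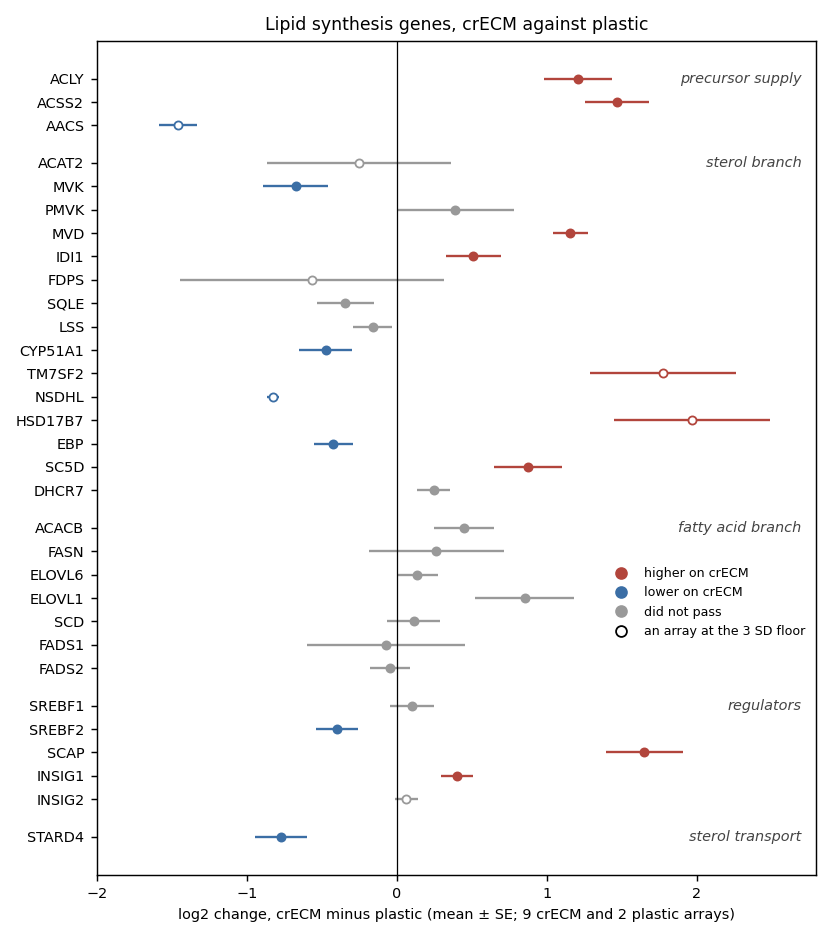
Log2 change of the 31 genes on the array, crECM minus plastic, with the SE of the limma fit (9 crECM and 2 plastic arrays), ordered along the pathway. The sterol branch spread from -0.83 for NSDHL to 1.97 for HSD17B7, with calls on both sides of 0, and none of the 7 fatty acid genes passed. Open circles mark genes with an array at the floor of 3 SD.

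The enzymes that make cytosolic acetyl-CoA were higher on crECM. ACLY, which cleaves citrate to acetyl-CoA, had 27.9 SD at the lowest, 47.0 at the median and 49.5 at the highest of the crECM arrays, against 19.5 and 15.8 SD on plastic. Every crECM array exceeded both plastic arrays, with the lowest levels at 12 h and on day 9. The log2 change was 1.21 ± 0.23 (SE), with an adjusted p of 0.00133. ACSS2, which makes acetyl-CoA from acetate, had 21.7, 35.3 and 37.7 SD on crECM, against 12.3 and 10.96 SD on plastic. Its crECM arrays lay near 35 SD until day 7 and at 23.2 and 21.7 SD on days 8 and 9, still above plastic. The change was 1.47 ± 0.21, with an adjusted p of 2.05e-04. Both genes kept their call in each of 20 other settings, but the setting without the regression step called most probes higher. On plastic, neither was above 3 SD once values were rebuilt from raw intensities. The higher plastic array was then at 2.87 SD for ACLY and 1.20 SD for ACSS2, so no fold is given. Without the regression step both genes were thus tested only through crECM and had to differ, so the call kept there says nothing about stability.

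AACS, which activates acetoacetate for lipid synthesis, was lower on crECM on the deposited scale. It was below 3 SD on all 9 crECM arrays, at 0.70 SD or less, and at 6.44 and 10.6 SD on plastic. The groups did not overlap, and the change against the floor was -1.46. A group that lies at the floor has no spread of its own, and the probe was tested only because it was above 3 SD on plastic, so no p is given. The raw intensity of the AACS probe was -20.8 to 71.5 on crECM, against 32.1 and 52.3 on plastic. These raw values overlapped, and in the rebuilt values AACS was below 3 SD on all 11 arrays. It could not be tested there, and quantile normalization of the raw values gave -0.92.

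**Figure D2:**
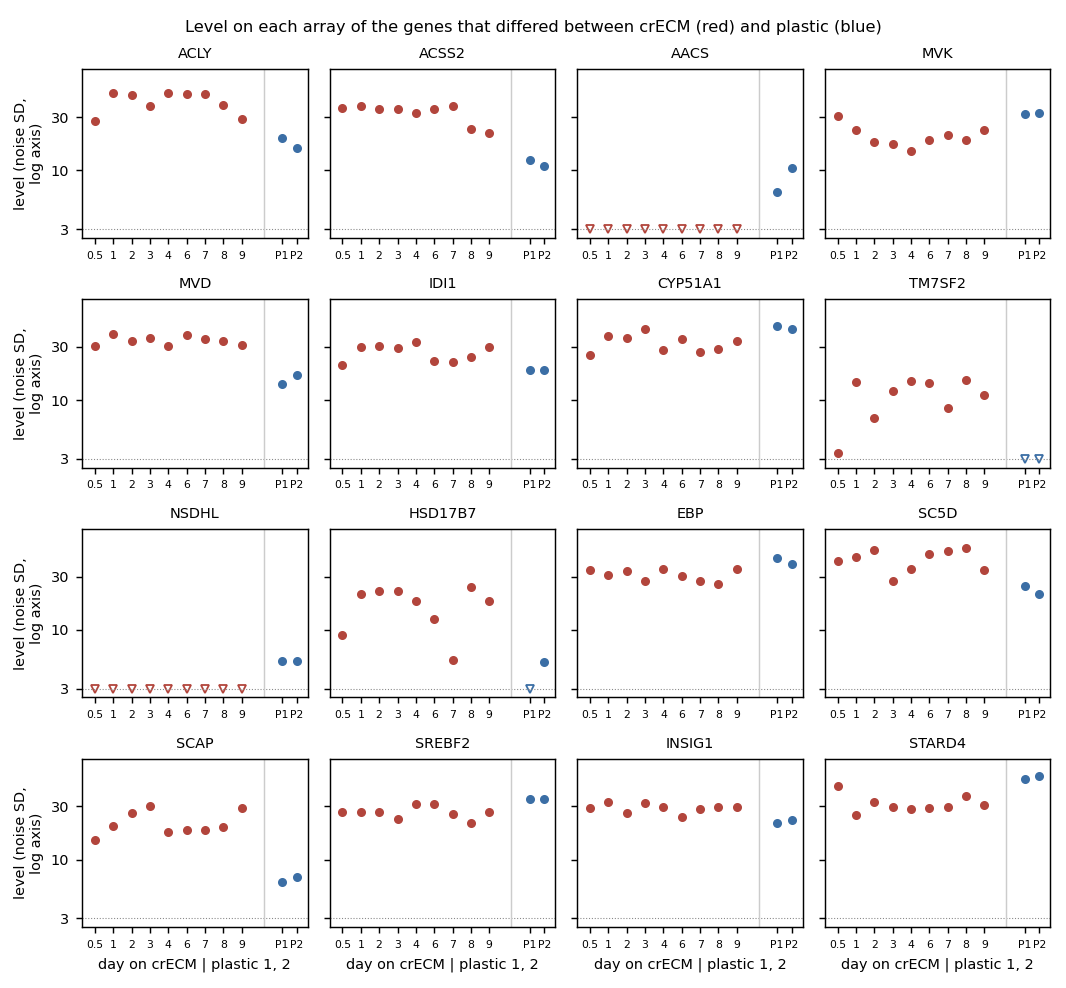
Level of each of the 16 called genes on every array in noise SD (log axis), with crECM by day in red on the left and plastic replicates P1 and P2 in blue on the right. ACLY, ACSS2, MVD and SCAP were above both plastic arrays at every time. Open triangles are values below 3 SD, drawn at the floor.

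Of the early sterol branch, MVK was lower on crECM, MVD and IDI1 were higher, and ACAT2, PMVK and FDPS did not pass. ACAT2, which joins acetyl-CoA units, had 15.8 to 22.4 SD on 8 crECM arrays and was below 3 SD on day 3, against 19.1 and 18.1 SD on plastic (-0.25 ± 0.61, adjusted p = 0.757, and a change of 0.046 without day 3). MVK, mevalonate kinase, had 14.8, 18.9 and 30.5 SD at the lowest, median and highest crECM array, against 31.9 and 32.6 SD on plastic. All crECM arrays were lower, with 12 h the closest to plastic and day 4 the farthest. The change was -0.68 ± 0.22 with an adjusted p of 0.0251, and without plastic replicate 1 or 2 the adjusted p was 0.127 and 0.159. PMVK, the next kinase, had 7.15, 19.4 and 23.0 SD on crECM, against 12.3 SD on both plastic arrays, and did not pass (0.39 ± 0.39, adjusted p = 0.440).

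MVD, which decarboxylates mevalonate diphosphate, was higher on crECM with little spread between arrays. It had 30.4, 33.7 and 39.1 SD on crECM, against 13.9 and 16.7 SD on plastic. No crECM array came near the plastic level, and the change was 1.16 ± 0.12, with an adjusted p of 1.05e-05. The call was kept in each of 20 other settings, with the limit given for ACLY. IDI1, which isomerizes the isoprenoid unit that MVD forms, had 20.7, 29.6 and 32.9 SD on crECM, against 18.5 and 18.7 SD on plastic. All crECM arrays were above plastic, the 12 h array least. Its change of 0.51 ± 0.18 had an adjusted p of 0.0382, which was 0.166 with quantile normalization, 0.0683 with array weights, 0.177 and 0.178 without plastic replicate 1 and 2, and 0.0553 to 0.0562 without the crECM array of day 1, 2, 3 or 9. In rebuilt values, the higher plastic array was at 1.54 SD for MVD and 2.61 SD for IDI1. FDPS, farnesyl diphosphate synthase, did not pass, with 38.3 to 55.1 SD on 8 crECM arrays, below 3 SD on day 9, and 50.4 and 51.9 SD on plastic. Its change was -0.56 ± 0.88 (adjusted p = 0.628), and -0.12 without day 9.

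Of the squalene and lanosterol steps, SQLE and LSS did not pass on their brighter or only probe. SQLE, squalene epoxidase and a rate-limiting enzyme of the branch, had 24.1, 28.0 and 46.1 SD on crECM, against 38.5 and 34.5 SD on plastic. On this probe, 8 crECM arrays were below both plastic arrays and day 6 was above both. The change was -0.34 ± 0.19 (adjusted p = 0.164), and -0.43 with an adjusted p of 0.00413 without day 6. A second SQLE probe gave a larger difference, with 6.00, 8.91 and 14.3 SD on crECM, against 25.9 and 35.5 SD on plastic. All 9 crECM arrays were below plastic on that probe, including day 6 at 8.35 SD, and the change was -1.74 ± 0.29 (adjusted p = 6.15e-04). LSS, which cyclizes the epoxide to lanosterol, had 20.5, 22.7 and 28.0 SD on crECM, against 25.2 and 26.2 SD on plastic (-0.16 ± 0.13, adjusted p = 0.329).

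The enzymes that convert lanosterol to cholesterol were divided. CYP51A1, the lanosterol demethylase, had 25.5, 33.8 and 43.5 SD on crECM, against 46.2 and 43.5 SD on plastic. The day 3 array reached the lower plastic array, and the other 8 were below both. Its change of -0.47 ± 0.18 lay at the threshold (adjusted p = 0.0475), and the call was lost without either plastic replicate (0.233 and 0.169) and without the crECM array of day 2, 4, 6, 7, 8 or 9 (0.0522 to 0.0676). It was also lost with quantile normalization (0.196) and array weights (0.153).

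TM7SF2, a sterol reductase that acts on its product, had 3.40, 12.0 and 15.2 SD on crECM and was below 3 SD on both plastic arrays. All 9 crECM arrays were above noise, 12 h barely so. The change against the floor was 1.78. TM7SF2 was tested only through crECM, so no p or fold is given, as for AACS. The change was 0.97 in values rebuilt without the regression step, 0.59 with median centering and 0.68 with quantile normalization. Relative to the median of all probes, the change was 1.72 in the deposited values and -0.30 in values rebuilt without the regression step. In the rebuilt values the higher plastic array was at -1.54 SD, and both were set to the floor of 3 SD. The size and sign of that relative change thus depended on the floor, so it gives no direction.

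NSDHL, which helps remove methyl groups from the ring, was below 3 SD on all 9 crECM arrays and at 5.31 and 5.33 SD on plastic, a change of -0.83 against the floor. As for AACS, it was tested only through plastic and no p is given. The raw intensities overlapped, at 25.1 to 52.8 on crECM, against 25.3 and 20.2 on plastic, and no array was above 3 SD in the rebuilt values. Quantile normalization gave -0.18. HSD17B7, a reductase that works with NSDHL, had 5.37, 18.2 and 24.4 SD on crECM, against 2.72 and 5.19 SD on plastic. The day 7 array, the lowest on crECM, was just above the higher plastic array. The change was 1.97 ± 0.52, with an adjusted p of 0.00943. It was 1.58 without plastic replicate 1, where the call was not kept. The raw intensity on plastic was 12.0 and 19.5, below the noise peak at 28 and 29.5, so no fold is given. The change was 1.38 without the regression step, 1.01 with median centering and 1.16 with quantile normalization. Relative to the median of all probes, the change was 0.12 without the regression step, against 1.91 in the deposited values. In the rebuilt values the higher plastic array was at -0.22 SD and was set to the floor, so the 0.12 depended on the floor.

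EBP, which shifts the ring double bond, had 25.6, 31.0 and 35.1 SD on crECM, against 44.3 and 38.5 SD on plastic, with no overlap. Its change was -0.42 ± 0.13 (adjusted p = 0.0190), with adjusted p of 0.221 and 0.0652 without plastic replicate 1 and 2, 0.0993 with quantile normalization and 0.0578 with array weights. SC5D, a sterol desaturase, had 27.5, 45.2 and 54.1 SD on its brighter probe on crECM, against 24.9 and 21.1 SD on plastic. All crECM arrays were higher, day 3 least, and the change was 0.88 ± 0.23 (adjusted p = 0.00868, and 0.111 without plastic replicate 2). The second SC5D probe did not follow, with 28.7, 33.6 and 40.8 SD on crECM, against 40.9 and 37.5 SD on plastic (-0.21 ± 0.12, adjusted p = 0.164), and the median over both probes was not called (0.33). DHCR7, which makes cholesterol in the final step, had 38.1, 47.4 and 52.9 SD on crECM, against 44.6 and 35.5 SD on plastic, and did not pass (0.25 ± 0.11, adjusted p = 0.0918). Without the low crECM array of day 8, its change was 0.28 with an adjusted p of 0.0201.

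Over the sterol branch, 5 genes were higher, 4 lower and 6 did not pass (4 and 3 without TM7SF2 and NSDHL), with a median change of -0.16 and a median absolute change of 0.51. The fatty acid branch held 0 calls in 7 genes, with a median of 0.14 and a median absolute change of 0.14. Of the 7, 2 had an unadjusted limma p under 0.05, as had 11289 of 21480 probes. Over all genes, each by its brightest probe, 24.2% were higher and 20.1% lower, beside 33.3% and 26.7% of the sterol branch. The median change over all genes was 0.09 and the median absolute change 0.46. No test compared the branches.

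The fatty acid enzymes overlapped between substrates gene by gene. FASN, the synthase that makes palmitate, had 7.79, 24.3 and 33.9 SD on crECM, against 23.6 and 14.5 SD on plastic. Its 12 h and day 1 arrays were the highest and day 9 the lowest, and plastic lay within that range (0.26 ± 0.45, adjusted p = 0.660). SCD, which introduces the first double bond, had 42.8, 60.1 and 73.3 SD on crECM, against 56.7 and 53.9 SD on plastic. Plastic again lay within the crECM range (0.11 ± 0.18, adjusted p = 0.632). ACACB, an acetyl-CoA carboxylase of mitochondria, had 13.0, 15.5 and 18.6 SD on its brighter probe on crECM, against 13.8 and 9.07 SD on plastic (0.45 ± 0.20, adjusted p = 0.0883). The second ACACB probe had the other sign, -0.64 ± 0.66 (adjusted p = 0.452).

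Of the elongases, ELOVL6, which extends palmitate, had 16.6, 18.9 and 20.7 SD on crECM, against 18.3 and 15.7 SD on plastic (0.14 ± 0.13, adjusted p = 0.428). ELOVL1, which makes very long saturated chains, had 12.7, 16.3 and 19.5 SD on crECM, against 15.3 and 5.09 SD on plastic. The plastic replicates disagreed for this gene more than the crECM arrays did. Its change of 0.85 ± 0.33 (adjusted p = 0.0554) was 1.65 with an adjusted p of 0.00267 without plastic replicate 1 and 0.059 without replicate 2, and its adjusted p was 0.0498 without the 12 h array. The desaturases of polyunsaturated fatty acids, FADS1 and FADS2, did not pass, with changes of -0.07 ± 0.53 (adjusted p = 0.921) and -0.04 ± 0.13 (adjusted p = 0.801). FADS1 had 5.06, 21.4 and 26.8 SD on crECM, against 17.2 and 19.6 SD on plastic. FADS2 had 37.6, 45.0 and 57.1 SD on crECM, against 46.8 and 47.8 SD on plastic.

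**Figure D3:**
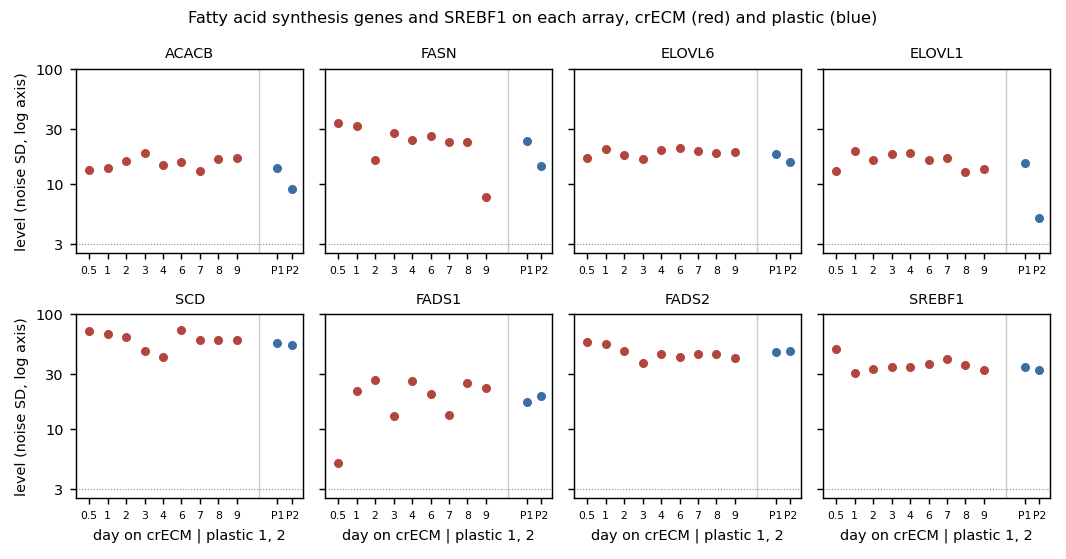
Level of the 7 fatty acid synthesis genes and of SREBF1 on every array in noise SD (log axis), with crECM by day in red on the left and plastic in blue on the right. The groups overlapped for each gene, with plastic replicate 2 of ELOVL1 (5.09 SD), ACACB (9.07 SD) and ELOVL6 (15.7 SD) below all crECM arrays, and FADS1 was at 5.06 SD at 12 h, below all later days.

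The regulators moved unequally. SCAP, the escort of the SREBP factors, had 14.9, 19.5 and 30.1 SD on crECM, against 6.37 and 7.04 SD on plastic. The lowest crECM array, at 12 h, exceeded both plastic arrays, and the change was 1.65 ± 0.26, with an adjusted p of 3.47e-04. The call was kept in each of 20 other settings, with the limit given for ACLY. The raw intensity of SCAP was 159 to 577 on crECM, against 31.7 and 29.5 on plastic, where it lay at the noise peak, so no fold is given. INSIG1, which retains SCAP and is itself a target of the SREBP factors, had 24.2, 29.5 and 32.8 SD on crECM, against 21.1 and 22.7 SD on plastic. No array overlapped, though the difference was small (0.40 ± 0.11, adjusted p = 0.0115), and without plastic replicate 1 and 2 the adjusted p was 0.141 and 0.0732. It was 0.151 with median centering and 0.0561 with quantile normalization.

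SREBF2, the factor most tied to sterol synthesis and the gene with the strict sterol element shown above, had 21.2, 26.7 and 31.6 SD on crECM, against 35.0 and 34.7 SD on plastic. All 9 crECM arrays were lower. The change was -0.40 ± 0.14, 1.32-fold lower, with an adjusted p of 0.0349, and 0.182 and 0.184 without plastic replicate 1 and 2, 0.128 with quantile normalization and 0.0893 with array weights. SREBF1, the factor most tied to fatty acid synthesis, had 30.6, 35.0 and 50.02 SD on crECM, against 34.9 and 32.8 SD on plastic, and did not pass (0.10 ± 0.15, adjusted p = 0.594). INSIG2 was above 3 SD on 3 of 9 crECM arrays, at no more than 3.54 SD, and on 0 of 2 plastic arrays (adjusted p = 0.515).

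STARD4, a soluble carrier of cholesterol, had 25.2, 29.8 and 45.4 SD on crECM, against 52.1 and 56.0 SD on plastic. All crECM arrays were lower, with 12 h nearest to plastic. The change was -0.77 ± 0.17, 1.71-fold lower, with an adjusted p of 0.00372, and 0.0603 without plastic replicate 2. A second STARD4 probe was below 3 SD on all crECM arrays and at 5.92 and 7.28 SD on plastic (-1.13 against the floor). Its raw intensities overlapped at the noise peak, 20.3 to 51.7 on crECM, against 28.9 and 30.9 on plastic, so this probe adds no measurement above noise.

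**Figure D4:**
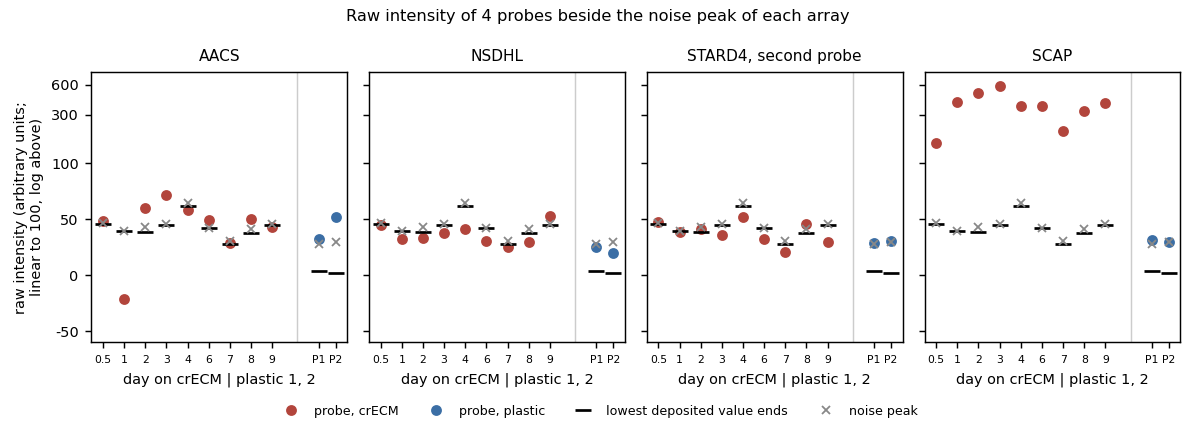
Raw intensity (arbitrary units, linear to 100 and logarithmic above) of the AACS probe, the NSDHL probe, the second STARD4 probe and the SCAP probe, with crECM by day in red on the left and plastic in blue on the right. Bars mark the raw intensity from which deposited values leave their lowest level, and crosses the noise peak. The first 3 probes lay near the noise peak on both substrates, whereas SCAP was at 159 to 577 on crECM and at 31.7 and 29.5 on plastic.

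The direction of the calls was then compared under 4 scalings of the same arrays, each taken relative to the median of all probes, which was 0.06 in the deposited values, 1.27 in values rebuilt without the regression step, -0.17 after median centering and -0.001 after quantile normalization. For 13 of the 16 called genes the relative direction was the same under all 4. The exceptions were TM7SF2, and AACS and NSDHL, which could be tested under 2 of the 4. In rebuilt values, both plastic arrays of TM7SF2, HSD17B7, ACLY, ACSS2, MVD, IDI1 and SCAP were below 3 SD and set to the floor. Their relative changes without the regression step therefore depended on the floor, and the sign for TM7SF2 gives no direction. The relative change was 0.93 to 1.40 for ACLY, 0.91 to 2.10 for ACSS2, 0.81 to 1.56 for MVD and 0.44 to 1.59 for SCAP. It was 0.32 to 0.74 for IDI1, 0.29 to 0.80 for INSIG1 and 0.12 to 1.91 for HSD17B7. For SC5D it was 0.75 to 1.09 on the probe used, while its second probe was not called. On the lower side it was -1.57 to -0.65 for STARD4, -0.98 to -0.50 for MVK, -1.16 to -0.32 for CYP51A1, -1.02 to -0.29 for EBP and -0.83 to -0.29 for SREBF2. The absolute direction of these 5 genes was reversed without the regression step, where nearly the whole array was brighter on crECM.

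**Figure D5:**
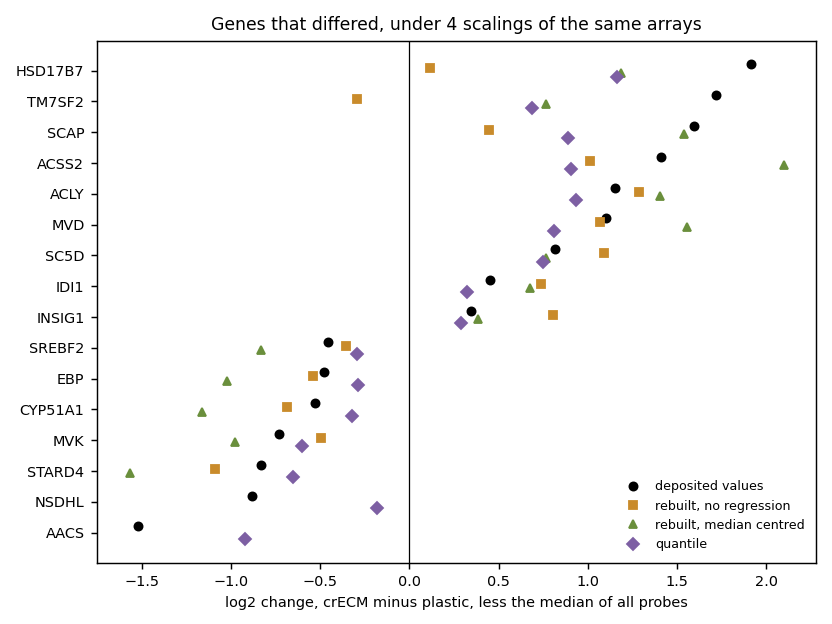
Log2 change of the 16 called genes, crECM minus plastic, less the median of all probes, under the deposited values and 3 other scalings of the same arrays (9 crECM and 2 plastic). TM7SF2 was at -0.30 without the regression step, where both its plastic arrays were set to the floor of 3 SD. The points of every other gene lie on the same side of 0.

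Within crECM, the 12 h array was set against days 1 to 9, which asks whether the genes had settled by 12 h. Of 29 members tested, 0 were higher at 12 h and 2 were lower, FADS1 and TM7SF2, and over all probes 2.03% were higher and 2.33% lower. FADS1 was at 5.06 SD at 12 h, against 13.0 to 26.8 SD on the other 8 days (-2.01 ± 0.41, adjusted p = 0.0262). TM7SF2 was at 3.40 SD at 12 h, against 6.95 to 15.2 SD later (-1.79 ± 0.44, adjusted p = 0.0493). The 12 h group is 1 array with no spread of its own, assumed to vary as the others did, so these values compare that array with the later ones and not the time. It was also the dimmest crECM array, with a median raw intensity of 224, against 250 to 481.5 on the others. Time and the brightness of that array cannot be told apart. The call of TM7SF2 was lost in 12 of 17 other settings.

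The 12 h array also held the lowest level of 7 members, among them ACLY, IDI1, MVD and SCAP, and the highest level of 7, among them FADS2, FASN, MVK, SREBF1 and STARD4. The matching shares over all probes were not counted, so these counts are description only. SREBF1 was at 50.02 SD at 12 h, against 30.6 to 40.6 SD on later days (0.52 ± 0.14, adjusted p = 0.0691). STARD4 was at 45.4 SD, against 25.2 to 37.3 SD later (0.59 ± 0.17, adjusted p = 0.0926). Neither passed over all probes. A trend over the doublings of time was called for 0 of 29 members, and for 1 of 19858 probes (0.00504% higher, 0% lower). At an unadjusted p under 0.05, 1 member had a trend, FADS2, at -0.10 ± 0.03 per doubling of time (adjusted p = 0.489).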

How the data were processed

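Spotted 1-color arrays had been hybridized with Cy3-labeled cDNA of RT4 cells on crECM (9 arrays) or plastic (2 arrays). The authors deposited raw intensities, whose scanner and background correction were not given in the sources used here. They also deposited log10 values, for which intensities had been expressed in SDs of the noise peak, log10 transformed and brought together across arrays by a robust regression. These log10 values served as the main measure, converted to log2 with a floor of 3 SD.

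Probes were named from the platform table: 17043 of 22464 had 1 symbol, 172 several and 5249 none, and 16952 were matched by gene identifier to GRCh38.p14. A pair of multi-gene probes that name ACSS2 or EBP was not used. A gene was represented by its probe of highest mean over the 11 arrays, and other probes were given where they disagreed. Probes above 3 SD on at least 2 arrays of a fit were tested with lmFit and eBayes with a trend (limma 3.58.1, R 4.3.3), with Benjamini-Hochberg adjustment over all of them. Arrays carry no depth, and their number limits the precision. The fit was tested on simulated data. Values were rebuilt from the raw intensities with a kernel bandwidth of 8 for the noise peak, and other floors, filters, scalings, array weights and left-out arrays were tried.

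Members in full were those that passed in a comparison without overlap of the groups, and ACLY, AACS, SQLE, FASN, SCD, INSIG1, SREBF1 and SREBF2. CYP51A1, whose groups overlapped, and the remaining members were added so that each is accounted for. The members and lists were chosen with earlier results of these data known. Promoter letters were searched with Python 3.11.15, and probe sequences were not used here.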

Additional observations from a re-analysis of the deposited data

Results flagged for a closer look

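Of 29 members tested for a single array far from the other 8 on crECM, 6 had such an array, by the ratio of its gap to the range of the group (Dixon), past its 95% critical value. Chance flags about 1 in 20 groups, or 1.45 of 29. FDPS on day 9 was below 3 SD, against 38.3 to 55.1 SD on the other days (ratio 0.875), and its raw intensity there was -251. ACAT2 on day 3 was below 3 SD, against 15.8 to 22.4 SD (ratio 0.826). SQLE on day 6 was at 46.1 SD, against 24.1 to 29.4 SD (ratio 0.697), which its second probe did not share, at 8.35 SD within a range of 6.00 to 14.3 SD. DHCR7 on day 8 was at 38.1 SD, against 46.2 to 52.9 SD (ratio 0.590). FADS1 at 12 h was at 5.06 SD, against 13.0 to 26.8 SD (ratio 0.565). FASN on day 9 was at 7.79 SD, against 16.2 to 33.9 SD (ratio 0.497). A repeat array would be needed at each of these times, since each was hybridized once.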

How the results depend on the processing

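Of the 16 called members, 4 (ACLY, ACSS2, MVD and SCAP) kept their call in all 20 settings. Without the regression step, 15896 of 19533 probes were called higher and 55 lower. A higher call was thus easily kept in that setting and a lower call hardly at all. There, both plastic arrays of ACLY, ACSS2, MVD and SCAP were below 3 SD. Each of these genes was tested in that setting only through crECM and had to differ, so the call kept there says nothing about stability. AACS and NSDHL were tested in 15 of the 20 settings, which left out the rebuilt values and both settings without a plastic array, so their calls say nothing about stability. IDI1 and CYP51A1 lost theirs without some crECM arrays. With 2 plastic arrays, leaving out either leaves 1, assumed to vary like crECM. No paired analysis was possible because the crECM arrays carry no replicate numbers.

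Without the regression step, 25 members were higher on crECM and 0 lower, the branch medians were 1.37 (sterol) and 1.37 (fatty acid), and the direction reversed for ACAT2 (1.40), MVK (0.77), FDPS (0.48), SQLE (0.92), LSS (1.46), CYP51A1 (0.59), EBP (0.73), FADS1 (1.55), FADS2 (0.94), SREBF2 (0.92) and STARD4 (0.18). With median centering, 12 were lower, the medians were -0.25 and 0.34, 1 member was called at 12 h, and DHCR7 (-0.57), SCD (-0.99), FADS1 (0.058) and SREBF1 (-0.51) reversed. With quantile normalization, 4 were lower, 0 were called at 12 h, and PMVK (-0.090), ACACB (-0.073), ELOVL6 (-0.11) and FADS2 (0.057) reversed. With array weights, 4 were lower, 1 was called at 12 h and FADS1 was at 0.10. A floor of 1 or 5 SD left 1 call at 12 h, over probes above 3 SD on all arrays the sterol median was 0.042, and the median over the probes of ACACB was -0.10. Over all probes, 7941 of 19333 were lower with median centering, 3755 of 20643 with quantile normalization and 4034 of 21480 with array weights.

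With 1 crECM array left out, 8 to 10 members were higher and 6 or 7 lower, and over all probes 4657 to 5453 were higher and 4636 to 5193 lower. Without either plastic replicate, fewer members and fewer probes were called in both directions. Over all settings with 1 array left out, the sterol median was -0.20 to 0.10 and the calls at 12 h were 1 to 3. ACAT2 was at -0.32 to 0.046, FASN at -0.092 to 0.62 and FADS1 at -0.17 to 0.15. The settings without a crECM array other than 12 h were chosen after seeing the data. The count of trends was 0 throughout. The cause of these changes was not tested.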

Other observations

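Other genes of the pathways, which were not on the member list, were called in both directions, beside 22.8% of all probes higher on crECM and 22.4% lower. The counts include genes below 3 SD on every array of a substrate, which were tested only through the other substrate and had to differ. Of 5 other sterol synthesis genes tested, 1 was higher on crECM and 2 were lower. LBR, a sterol reductase of the nuclear envelope, had 24.1, 27.4 and 33.2 SD at the lowest, median and highest crECM array, against 43.3 and 43.0 SD on plastic (-0.64 ± 0.11, limma adjusted p = 5.49e-04). MSMO1, a methyl sterol oxidase, had 22.3, 25.9 and 26.6 SD on crECM, against 38.6 and 36.7 SD on plastic (-0.59 ± 0.09, adjusted p = 3.96e-04). Neither overlapped between substrates. The gene called higher, ERG28, had a larger change (1.90 ± 0.70, adjusted p = 0.0449), but its groups overlapped. It had 1.34, 14.1 and 28.9 SD on crECM, against 4.02 SD and a value below 3 SD on plastic.

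Of 14 genes of sterol uptake, transport and processing, 4 were higher and 3 lower. STARD3, a carrier of late endosomes, had 12.5, 16.5 and 26.5 SD on crECM and was below 3 SD on both plastic arrays. It was tested only through crECM, so no p or fold is given. ABCA1, which exports cholesterol, had 26.2, 34.9 and 36.2 SD on crECM, against 48.8 and 48.5 SD on plastic (-0.58 ± 0.12, adjusted p = 0.00216). Larger changes than that of ABCA1 were called higher for OSBP (1.00 ± 0.20, adjusted p = 0.00210) and SOAT2 (0.68 ± 0.15, adjusted p = 0.00375). They were called lower for CYP27A1 (-1.01) and ABCG1 (-0.97), which were below 3 SD on 9 and 8 crECM arrays. Of 22 other fatty acid synthesis genes, 5 were higher and 5 lower, and of 14 fatty acid oxidation genes, 4 and 2. CPT1A, the gate of mitochondrial oxidation, had 25.9, 27.9 and 30.7 SD on crECM, against 40.2 and 43.3 SD on plastic (-0.56 ± 0.08, adjusted p = 2.11e-04). The larger changes of the oxidation list were higher on crECM. These were EHHADH (0.75 ± 0.25, adjusted p = 0.0317), ACADS (0.68 ± 0.25, adjusted p = 0.0448) and ACAA1 (0.68 ± 0.23, adjusted p = 0.0300). THRSP, a lipogenic regulator, had 6.80, 13.6 and 19.2 SD on crECM and was below 3 SD on both plastic arrays, so no p is given for it either.

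Genes of other cell types were measured as well. Of 5 adipocyte markers, ADIPOQ and CIDEC were called higher on crECM and FABP4 lower. ADIPOQ and CIDEC were below 3 SD on both plastic arrays and FABP4 on all 9 crECM arrays. Each was thus tested only through the group where it was high. The summed level of the 5 was 70.8 to 105.5 SD on crECM and 62.0 to 62.3 SD on plastic. Summed levels were 122 to 140 SD on crECM and 119 to 124 SD on plastic for 6 fibroblast markers, 88.7 to 112 SD on crECM and 85.7 to 88.6 SD on plastic for 4 leukocyte markers, and 58.0 to 82.2 SD on crECM and 62.2 to 68.8 SD on plastic for 4 hepatocyte markers. Within these sums, single genes were called in both directions. COL1A1, PDGFRB, CD3E and APOA1 were higher on crECM, and COL1A2, COL3A1, CD68 and TTR were lower. CD3E had 26.8, 33.3 and 37.0 SD on crECM, against 5.31 and 5.09 SD on plastic. PDGFRB was below 3 SD on both plastic arrays and COL1A2 on all 9 crECM arrays, so each had to differ. No list was below 3 SD as a whole on either substrate, where most probes of the array were above 3 SD. In rebuilt values, 5 of 6 fibroblast, 4 of 4 leukocyte, 4 of 5 adipocyte and 4 of 4 hepatocyte markers were above 3 SD on at least 5 crECM arrays. On both plastic arrays, these counts were 1, 2, 2 and 1. Of all probes in these values, 76.5% to 85.4% were above 3 SD on each crECM array, and 53.2% and 44.5% on the plastic arrays. The part of such signal in the levels of the members was not tested.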
